A study of Mus musculus with 4 samples.

Results

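The genes described here encode 7 RNA-binding proteins with a reported affinity for N6-methyladenosine (m6A), which are Ythdf1, Ythdf2, Ythdf3, Ythdc1, Ythdc2, Fmr1 and Prrc2a, and the 2 m6A demethylases Alkbh5 and Fto. They were taken by name from the site tables of 4 libraries of mouse retinal organoids, and all 9 were listed in all 4. They made up 9 of 20001 named genes and held 1475 of 1076788 listed positions. What was measured is the methylation of the transcripts of these genes themselves, not the binding or the activity of their proteins.

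The libraries were made by GLORI from polyA RNA. In this assay glyoxal and nitrite turn unmethylated adenosine into inosine, which is sequenced as G, and m6A is still sequenced as A, so the level of a site is the percentage of its A or G reads that are A. All 4 libraries came from organoids of the Rx:GFP reporter line carrying a C-terminal FKBP12F36V-HA degron on the endogenous methyltransferase METTL3, at day 6 of differentiation in medium with AGN (a name the labels do not expand). The untreated group (0 h, 2 libraries) received no dTAG13, and the dTAG13 group (8 h, 2 libraries) received 125 nM of dTAG13, a small molecule that directs degron-tagged proteins to the proteasome. The untreated organoids carried the degron too, so no library without the degron entered the comparison, and no label says whether the line is a single clone. The genotype labels number the Mettl gene differently in each of the 4 samples, whereas the title and the growth protocol of the study name METTL3. The degron was taken to be on METTL3, and this was not tested. Nothing in the labels says that replicates were separate cultures, so p-values measure the spread between these libraries, which may be technical. The labels give the same batch for all 4.

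METTL3 works with METTL14 to methylate mRNA in the nucleus, mostly near stop codons and in long internal exons. The YTH-domain proteins bind the methylated base directly: the nuclear YTHDC1 acts in splicing and export, and the cytoplasmic YTHDF proteins act mainly in mRNA decay, with YTHDF2 recruiting the CCR4-NOT deadenylase. ALKBH5 and FTO remove methyl groups from RNA, so the set holds genes whose products read or erase the mark that METTL3 writes.

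The tables list called sites only. No listed site had fewer than 15 reads in all, fewer than 5 A reads or a level under 10%, and a position that is not listed can be unmethylated, below these limits or uncovered. Over all genes, 335607 and 350462 sites were listed without dTAG13 against 220034 and 263069 with it, a ratio of means of 0.704. The 11 retinal progenitor markers examined (among them Rax, Six6 and Lhx2) were listed in all 4 libraries, and so were the 4 pluripotency markers (Pou5f1, Nanog, Zfp42 and Dppa5a). The mesoderm markers were searched under the names T, Mesp1 and Tbx6, and none of these names was listed. Other names of these genes were not searched, and a gene without a called site is not listed, so this does not show that they were absent. Of the 3 markers each for endoderm and neurons, 1 and 2 were listed in all 4. The summed gene coverage of the retinal markers was 5633 and 6704 without dTAG13 against 3824 and 5609 with it, and that of the pluripotency markers was 867 and 883 against 615 and 799. These sums were taken without adjusting for depth. With coverage centred on the median gene, the median log2 change was -0.17 over the retinal and -0.11 over the pluripotency markers, beside -0.067 over all genes. The part of cell composition in the results on the reader and eraser genes was not tested.

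Over the 9 genes together, the untreated libraries listed 481 and 435 sites and the dTAG13 libraries 343 and 397. Both dTAG13 values were lower, with means of 370 ± 38.2 against 458 ± 32.5 (SD, n = 2 each) and a ratio of 0.808. Over all sites placed in genes that ratio was 0.714. The exact two-sided permutation p was 0.333, the smallest that 2 libraries against 2 can give. The median level of the listed sites was 23.4% and 22.9% without dTAG13 against 24.6% and 24.0% with it. Sites at 50% or more numbered 94 and 86 against 78 and 87, and these groups overlapped. The median depth of a listed site was 138 and 129 reads against 114 and 161 reads.

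The fewer sites were spread unevenly over the genes. Both dTAG13 libraries listed fewer sites than both untreated ones in Prrc2a, Alkbh5, Fto and Ythdc2, 4 of the 9 genes, where 46.4% of all 12449 genes tested did the same. Neither Ythdf1 nor Ythdf2 nor Ythdf3 was among them, and no member had more sites in both dTAG13 libraries than in both untreated ones (background 4.51%). By edgeR's quasi-likelihood test on the number of listed sites, 0 of the 9 genes and 0 of all genes passed an adjusted p of 0.05, and DESeq2 also called none of either. At an unadjusted p under 0.05 there were 2 members, Prrc2a and Ythdc2, against a background of 20.7%. The median log2 change in listed sites was -0.29 over the 9 genes and -0.51 over all genes, with a range over members from -0.81 to 0.57 and 7 of 9 below 0. With the total number of listed sites as library size the median over all genes was -0.030, and Prrc2a (-0.33), Ythdc2 (-0.33) and Alkbh5 (-0.29) were then the 3 members below 0. The values of Ythdf3, Ythdc1, Fmr1 and Fto turned positive on that scale. At an unadjusted p under 0.05 on that scale edgeR had 3 members, Ythdf2 (1.06), Ythdf1 (0.73) and Ythdf3 (0.43), all higher with dTAG13. Prrc2a and Ythdc2 were not among them, and over all genes 1434 of 12449 were under that value. No member passed an adjusted p of 0.05 on that scale either, while edgeR called 22 genes lower and 36 higher over the whole table. The members took 0.184% and 0.160% of all sites placed in genes without dTAG13 and 0.192% and 0.197% of those with it.

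**Figure D1:**
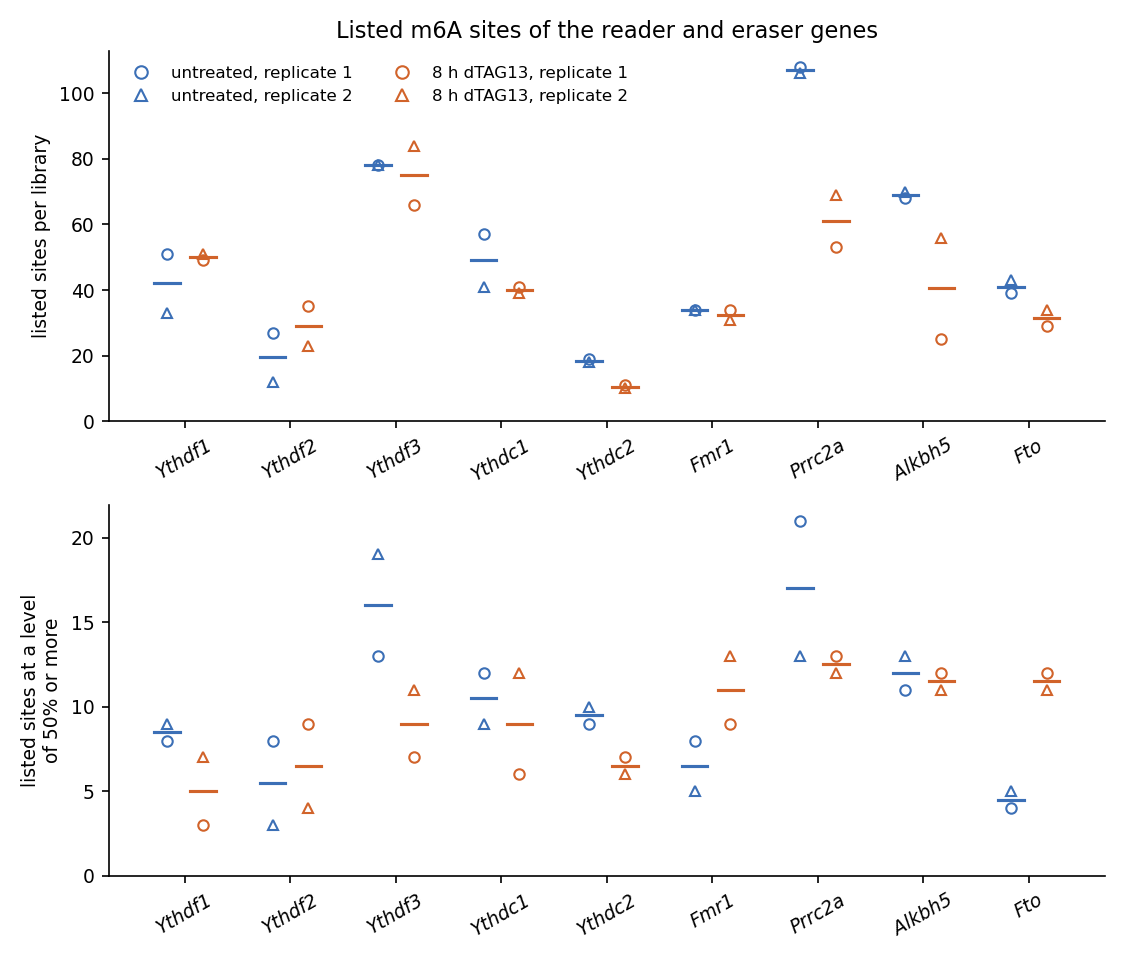
Number of listed m6A sites (upper panel) and of sites at a level of 50% or more (lower panel) in each of the 9 genes; each point is 1 library, blue for untreated and orange for 8 h of dTAG13, circles for replicate 1 and triangles for replicate 2, and each bar is the mean of 2 libraries. Prrc2a lies at 108 and 106 sites without dTAG13 against 53 and 69 with it, while Ythdf3 lies at 78 and 78 against 66 and 84; in the lower panel Fto lies at 4 and 5 against 12 and 11.

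The transcripts themselves were seen through the deposited gene coverage, a value per gene and library whose computation is not given in the sources used here. Among the 12520 genes that appear in every library, the median one had a coverage of 99.2 and 103.2 without dTAG13 against 82.4 and 110.9 with it. In the untreated libraries the order of mean coverage was Ythdf3 (258), Prrc2a (255), Ythdf1 (219), Fto (198), Ythdc1 (195), Alkbh5 (186), Fmr1 (162), Ythdf2 (108) and Ythdc2 (76.7). The values of neighbours in this order overlapped between Ythdf3 and Prrc2a and from Fto to Fmr1, and did not overlap at the other steps. Whether the deposited coverage is per base, so that it can be compared between genes of different length, is not given in the sources used here.

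With dTAG13, Prrc2a was the 1 member whose coverage was lower in both libraries than in both untreated ones (background 28.1%), and Ythdf1, Ythdc1 and Ythdc2 were the 3 with higher coverage in both (background 10.1%). By limma on log2 coverage centred on the median gene, 0 of the 9 and 0 of all genes passed an adjusted p of 0.05. At an unadjusted p under 0.05 there were again 2 members, Ythdf1 and Prrc2a (background 12.7%). In polyA RNA of whole organoids, fewer cells of a type and less RNA per cell cannot be told apart.

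A further value is the unconverted share of a gene, 100% minus its deposited conversion rate. How the authors computed that rate, and over which adenosines, is not given in the sources used here. In the median gene it was 4.15% and 3.78% without dTAG13 against 3.13% and 3.26% with it. It was lower in both dTAG13 libraries in Ythdf3, Fmr1 and Alkbh5, 3 of 9, where 40.9% of all genes did the same, and higher in both in none of the 9 (background 6.05%). By limma on log2 odds, 0 of the 9 and 0 of all genes passed an adjusted p of 0.05, and 1 member, Ythdf3, had an unadjusted p under 0.05 (background 12.3%). Centred on the median gene, the log2 odds difference of Fmr1 was 0.0024, while those of Ythdf3 and Alkbh5 were -0.48 and -0.014. Prrc2a had the highest unconverted share of the set, 5.65% and 5.47% against 5.19% and 5.93%, and these groups overlapped.

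**Figure D2:**
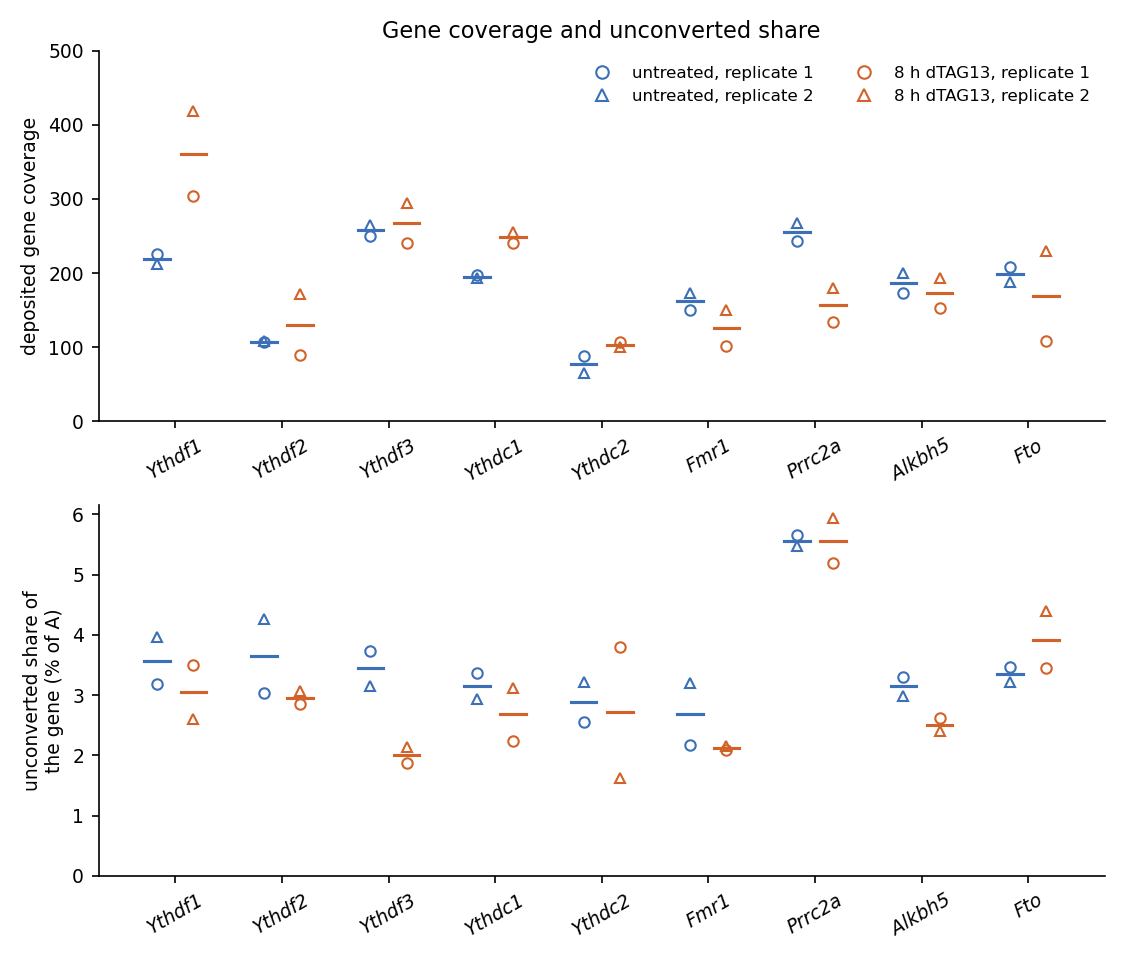
Deposited gene coverage (upper panel) and unconverted share of the gene in percent (lower panel) for the 9 genes; each point is 1 library, blue for untreated and orange for 8 h of dTAG13, circles for replicate 1 and triangles for replicate 2, and each bar is the mean of 2 libraries. Ythdf1 lies at a coverage of 226 and 212 without dTAG13 against 304 and 418 with it, and Ythdf3 at an unconverted share of 3.74% and 3.15% against 1.87% and 2.15%.

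Ythdf3 encodes a cytoplasmic reader that works together with the other YTHDF proteins, and it held the single reader or eraser site that passed the test of levels. At position 16258975 of chromosome 3, on the plus strand, every one of 35 and 27 reads was A in the untreated libraries. With dTAG13 the level of this site was 23.9% of 71 reads and 15.6% of 90 reads. The site was wholly unconverted in both untreated libraries and mostly converted in both dTAG13 libraries, and its level fell by 80.3 percentage points, from 100% ± 0 to 19.7% ± 5.93 (SD, n = 2 each). A quasi-binomial model with limma-moderated dispersion gave an adjusted p of 0.0229 over the 2321 sites that all 4 libraries list at 20 reads or more. Over all these sites, 2.2% were called lower and 0.0862% higher, and 9.35% had an unadjusted p under 0.05. The call was not kept under a replicate block (adjusted p of 0.0986) or without any 1 of the 4 libraries (adjusted p from 0.142 to 0.305), where the same model called no site at all. The difference itself stayed at -80.3 percentage points under the block and between -84.4 and -76.1 without 1 library.

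The only other member site that could enter this test also lies in Ythdf3, at position 16258433, 542 bases upstream. Its level was 98.8% of 82 reads and 93.4% of 151 reads without dTAG13. With dTAG13 it was 50.0% of 32 reads and 61.6% of 237 reads. The 2 groups did not overlap and the difference was -40.3 percentage points, but the adjusted p of 0.0793 by the quasi-binomial model missed the threshold. One more site near 100% stood 72 bases before it, at 16258361, with 98.6% of 69 reads and 100% of 160 reads without dTAG13. It was listed at 23.7% of 194 reads in the second dTAG13 library and was not listed in the first.

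These sites lie in one stretch of listed positions of Ythdf3, from 16257621 to 16259442, which held 72 sites over 1822 bases. Sites at 90% or more in it numbered 7 and 4 without dTAG13 against 1 and 2 with it. The read-weighted mean level of its listed sites was 37.3% and 44.2% against 30.9% and 30.5%. The stretch was chosen for these sites, so its counts are a description.

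The 3'-most stretch of Ythdf3 held 184 sites over 3006 bases. It included the most deeply read site of all 9 genes that was listed in both untreated libraries, 16268265, at 65.5% of 1656 reads and 68.3% of 1584 reads. Its neighbour 10 bases upstream, 16268255, stood at 20.2% of 1602 reads and 16.7% of 1616 reads. Neither was listed with dTAG13. The nearest listed sites to 16268265 there were 75 bases away in the first library (100% of 26 reads) and 208 bases away in the second (95.5% of 44 reads). The tables therefore do not show whether the position itself was covered. The former site, 16268190, was also at 100% of 115 reads in the second untreated library, and it was named after its values were seen. Sites at 90% or more in this stretch numbered 1 and 2 without dTAG13 against 1 and 3 with it. In the same stretch 16270327, the remaining Ythdf3 site listed in 3 libraries, was at 18.0% of 355 reads in the first untreated library and at 21.8% of 344 reads and 11.0% of 543 reads with dTAG13. The dTAG13 levels lay on either side of the untreated one. Site 16268709 was listed with dTAG13 alone, at 24.6% of 183 reads and 11.5% of 234 reads. In the upstream stretch 16258223 was listed without dTAG13 alone, at 38.5% of 187 reads and 62.3% of 276 reads.

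Over the whole of Ythdf3, 78 and 78 sites were listed without dTAG13 against 66 and 84 with it. Its coverage was 250 and 265 against 240 and 295, which overlapped as well. The read-weighted mean level of its listed sites was 24.4% and 28.8% against 20.6% and 20.9%, lower in both dTAG13 libraries. By limma on log2 odds, the difference in mean level was -0.47 ± 0.27 (SE), with an adjusted p of 0.586. The unconverted share of the gene was also lower in both, with a log2 odds difference of -0.80 ± 0.28 (SE), an unadjusted p of 0.0360 and an adjusted p of 0.391 by limma. Sites at 50% or more numbered 13 and 19 against 7 and 11.

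Ythdf1, whose product is known for promoting translation of methylated mRNAs, was covered at 226 and 212 without dTAG13 against 304 and 418 with it. Both dTAG13 values were above both untreated ones, with a centred log2 difference of 0.79 ± 0.20 (SE) and an adjusted p of 0.363 by limma (unadjusted 0.00804). The number of listed sites was 51 and 33 against 49 and 51, so the groups overlapped. Their read-weighted mean level was 22.8% and 29.8% against 17.5% and 17.7%. Both dTAG13 values were lower, with a log2 odds difference of -0.73 ± 0.31 (SE) and an adjusted p of 0.531 by limma. The share of listed Ythdf1 sites under 20% was 41.2% and 39.4% against 55.1% and 72.5%, higher in the libraries with higher coverage. The part of coverage in the lower mean level was not tested. No member had an unadjusted p under 0.05 for its mean level (background 9.75%), and 0 of the 9 and 0 of all 9712 genes tested passed an adjusted p of 0.05. The members with a lower mean level in both dTAG13 libraries were Ythdf1 and Ythdf3, 2 of 9 (background 13.9%), and those with a higher one were Ythdc2, Fmr1, Prrc2a and Fto, 4 of 9 (background 32.4%). The listed positions differ between libraries, so a mean level compares largely different sites.

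In Ythdf1 the groups also differed at the upper end of the levels. There were 4 and 4 sites at 90% or more without dTAG13 against 0 and 0 with it. Over the 9 genes together such sites numbered 42 and 36 against 40 and 36. Both dTAG13 libraries had fewer in 2 members, Ythdf1 and Ythdf3, and more in 1, Fto. The shares of all genes with fewer or more such sites were not computed, so these counts of members have no background. For sites at 50% or more, 22.7% of all genes had fewer in both dTAG13 libraries and 7.34% had more. All of the untreated Ythdf1 sites at 90% or more lay in a stretch of chromosome 2 from 180552622 to 180553979, on the minus strand. This stretch held 88 sites over 1358 bases. The mean level of the sites listed there was 28.9% and 41.5% against 22.7% and 16.0%. Of the 8 listings at 90% or more over both libraries, 5 rested on fewer than 50 reads, and their median depth was 43 reads.

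The best covered of these sites was 180553863, at 89.9% of 149 reads and 99.1% of 213 reads without dTAG13. With dTAG13 it was listed in the second library alone, at 10.2% of 551 reads. Site 180552763 was at 100% of 43 reads and 100% of 29 reads and was not listed with dTAG13, where a site 18 bases away had 91 and 101 reads. In 4 more positions a site near 100% in 1 untreated library was listed again in 1 dTAG13 library, all at a lower level. Site 180552730 was at 100% of 43 reads and then 28.1% of 64 reads, and site 180552801 was at 96.9% of 129 reads and then 33.3% of 99 reads. Site 180552979 was at 95.5% of 22 reads and then 32.0% of 75 reads, and site 180552626 was at 100% of 20 reads and then 70.6% of 17 reads. These 4 positions were picked after their values were seen, and none of them was listed in all 4 libraries, so none was tested.

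Other Ythdf1 positions were listed in both libraries of 1 group alone, at lower levels. Without dTAG13 these were 180547402, at 34.5% of 168 reads and 39.1% of 238 reads, and 180546286, at 44.2% of 156 reads and 25.1% of 179 reads. With dTAG13 they were 180553270 at 20.4% and 14.7%, 180547227 at 14.5% and 13.8%, 180546373 at 26.5% and 20.8%, and 180552781 at 41.8% and 37.6%.

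**Figure D3:**
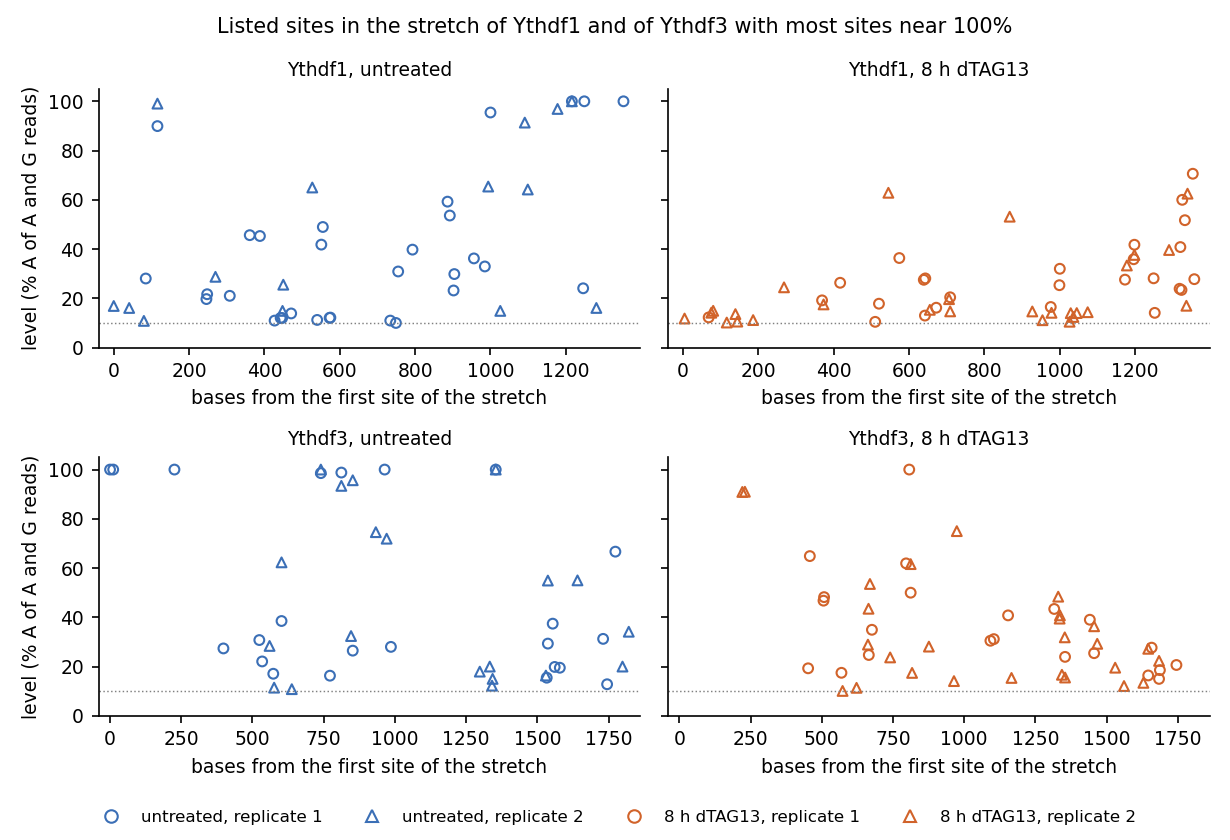
Level of each listed site, in percent of A and G reads, against its distance in bases from the first site of the stretch in the direction of transcription, for the stretch of Ythdf1 (upper) and of Ythdf3 (lower) with most sites at 90% or more, untreated left and 8 h of dTAG13 right; circles are replicate 1, triangles replicate 2, and the dotted line is the lowest listed level of 10%. Ythdf1 has 4 and 4 sites at 90% or more without dTAG13 against 0 and 0 with it, and Ythdf3 has 7 and 4 against 1 and 2. Both stretches were chosen for such sites, so these counts are a description.

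Ythdf2, which encodes the reader that recruits deadenylases, had the fewest untreated sites of the YTHDF genes, 27 and 12, against 35 and 23 with dTAG13. The groups overlapped, and the untreated libraries alone differed more than the group means. Its mean level was 22.6% and 24.4% against 22.1% and 26.1%, and its coverage was 106 and 109 against 89.0 and 172. The one site listed in 3 libraries was 131939346 of chromosome 4, which is 23 bases from the first listed site of the gene. It stood at 11.9% of 143 reads and 21.6% of 153 reads without dTAG13 and at 27.3% of 88 reads in the first dTAG13 library. Site 131914186 was listed in both dTAG13 libraries alone, at 18.4% of 185 reads and 37.0% of 230 reads.

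Among the YTHDC genes, Ythdc1, which encodes the nuclear reader, had 57 and 41 listed sites without dTAG13 against 41 and 39 with it. Its coverage was 198 and 193 against 241 and 256, higher in both dTAG13 libraries, with a centred log2 difference of 0.43. The 156 positions of the gene fell into 11 separate stretches, beside 12 in Ythdc2 and 3 to 5 in the YTHDF genes. It had 3 sites listed in 3 libraries. Site 86974623 of chromosome 5 was at 12.4% of 161 reads and 15.4% of 214 reads without dTAG13 and at 20.5% of 263 reads in the first dTAG13 library. Site 86983997 was at 19.6% and 21.3% and then at 12.4% of 113 reads. Site 86976400 was near 100% throughout, at 96.0% of 126 reads and 95.2% of 84 reads without dTAG13 and at 100% of 45 reads in the first dTAG13 library. It is the only one of the members' 8 sites averaging 90% or more in the untreated pair that was relisted with dTAG13 without being lower. Without dTAG13 alone, 86983923 was at 66.9% and 30.6% and 86976500 at 46.3% and 28.9%. With dTAG13 alone, 86974591 was at 32.5% and 16.0%, 86952373 at 12.5% and 14.5%, and 86970687 at 27.8% and 29.0%.

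Ythdc2, which encodes a reader with a helicase domain known for its role in meiotic germ cells, was the least covered member, at 88.1 and 65.2 without dTAG13 against 107 and 99.6 with it. Fewer sites were listed with dTAG13 although coverage was higher: 11 and 10 sites against 19 and 18 without it, and these groups did not overlap. The log2 difference in listed sites was -0.81, with an adjusted p of 0.240 (unadjusted 0.0488) by edgeR's quasi-likelihood test. Its mean level was the highest of the set, 40.0% and 43.8% against 47.7% and 44.8%. Of its 57 positions, 56 were listed in a single library, and none in both libraries of either group. The deepest, 45022051 of chromosome 18, stood at 33.1% of 543 reads in the first dTAG13 library, and 45022003 stood at 12% of 450 reads in the same library.

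Fmr1 encodes FMRP, the translational regulator lost in fragile X syndrome, which has been reported to bind methylated mRNA. Its listed sites numbered 34 and 34 without dTAG13 against 34 and 31 with it, and the groups overlapped. Coverage was 150 and 173 against 101 and 150. The mean level was 23.6% and 25.8% against 31.1% and 29.7%, higher in both dTAG13 libraries, with a log2 odds difference of 0.42 that limma did not call. Sites at 50% or more numbered 8 and 5 against 9 and 13. Fmr1 and Fto were the 2 members with more such sites in both dTAG13 libraries (background 7.34%), while Ythdf1, Ythdf3 and Ythdc2 were the 3 with fewer in both (background 22.7%). All 10 listings of Fmr1 at 90% or more with dTAG13 rested on fewer than 50 reads.

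The positions of Fmr1 were the most concentrated of the set, with 72.6% of 124 sites within the last 2000 bases before the 3'-most listed one. Its one site shared by both untreated libraries was 67759511 of chromosome X, at 18.7% of 326 reads and 27.7% of 166 reads. The deepest single listing was 67760530, at 11.3% of 710 reads in the first untreated library. Site 67760621 stood at 11.7% of 681 reads in the second untreated library and at 11.4% of 123 reads in the second dTAG13 library. Across all 9 genes the share of positions in this last window ran from 14.4% in Prrc2a to 72.6% in Fmr1, with 68.0% in Fto, 46.6% in Ythdf3 and 40.7% in Ythdf1.

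Prrc2a encodes a large proline-rich protein reported to bind m6A and to act in oligodendrocyte development. It had the most listed sites of the set, 108 and 106 without dTAG13 against 53 and 69 with it. The dTAG13 values lay far below the untreated ones, means of 61.0 ± 11.3 against 107 ± 1.41 (SD, n = 2 each), a log2 difference of -0.81 (-0.33 with the total number of listed sites as library size). The adjusted p was 0.179 (unadjusted 0.00401) by edgeR's quasi-likelihood test. Coverage stood lower in the same libraries, 133 and 179 against 243 and 268, with a centred log2 difference of -0.64 ± 0.20 (SE) and an adjusted p of 0.363 by limma. The part of the lower coverage in the lower number of sites was not tested. The mean level of the listed sites was 26.1% and 23.4% with dTAG13 against 23.0% and 20.3%, over largely different positions: of 116 listed with dTAG13, 92 were in neither untreated table.

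Prrc2a also supplied the most sites shared by both untreated libraries, 15 of 42. Site 35377015 of chromosome 17, on the minus strand, was at 11.6% of 404 reads and 10.1% of 306 reads without dTAG13 and at 15.2% of 762 reads in the second dTAG13 library. Site 35374464 was at 16.6% and 18.9% and then at 18.9% of 222 reads in the first dTAG13 library. Site 35376973, listed in 1 untreated library at 18.4%, was at 18.7% and 21.9% in both dTAG13 libraries. The fourth site listed in 3 libraries, 35373811, was at 11.5% of 174 reads in the second untreated library. With dTAG13 it was at 12.3% of 236 reads and 49.9% of 571 reads, so its dTAG13 replicates lay far apart and the second was well above the untreated value. A site had to stay at 10% or more to be listed at all. Further sites were listed in both untreated libraries alone: 35369579 at 14.9% and 12.5%, 35376437 at 20.7% and 17.4%, 35369241 at 10.04% and 19.4%, and 35375034 at 16.2% and 67.6%. At a higher level, 35376956 was at 57.1% of 315 reads and 59.3% of 285 reads and was not listed with dTAG13, where listed sites 13 and 14 bases away had 220 and 424 reads. In 1 untreated library 35374604 was at 98.3% of 121 reads, and it was at 13.9% of 122 reads in the first dTAG13 library. The reverse was seen at 35374986, at 19.7% of 446 reads in the first untreated library and at 100% of 55 reads in the first dTAG13 library. These last 3 positions fall outside the naming rule and were chosen after their values were seen.

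Alkbh5 encodes the nuclear demethylase of m6A. It had 68 and 70 listed sites without dTAG13 against 25 and 56 with it. Both dTAG13 values were lower, but the dTAG13 libraries differed from each other by more than the nearest values of the groups did. The log2 difference was -0.77, with an adjusted p of 0.275 by edgeR's quasi-likelihood test, and it was -0.30 without the first dTAG13 library and -1.46 without the second. Coverage was 173 and 200 against 153 and 193, and the mean level was 26.5% and 21.8% against 30.8% and 22.9%. The unconverted share was 3.30% and 2.99% against 2.62% and 2.40%.

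The most highly methylated Alkbh5 site of the untreated pair was 60445261 of chromosome 11, at 100% of 134 reads and 99.5% of 185 reads. It was not listed with dTAG13, although listed sites 20 and 24 bases away had 57 and 104 reads there, at 24.6% and 22.1%. Site 60449159, 151 bases before the last listed site, was at 44.0% of 84 reads and 61.6% of 357 reads and was not listed with dTAG13 either. Nor were 60446706, at 59.5% and 34.0% without dTAG13, and 60445546, at 23.4% and 11.0%. In the other direction, 60429825 was listed in both dTAG13 libraries alone, at 64.8% of 108 reads and 19.0% of 253 reads. Its replicates lay far apart, as did those of 60445364 (79.5% of 39 reads and 19.8% of 116 reads) and 60446304 (96.2% of 26 reads and 39.7% of 73 reads). At the 1 site listed in 3 libraries, 60446187, the 2 untreated levels of 34.8% and 10.0% were on either side of the dTAG13 level of 24.6%.

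Fto, the other demethylase, had 39 and 43 listed sites without dTAG13 against 29 and 34 with it, groups that did not overlap, though its log2 difference of -0.38 became 0.10 with the total number of listed sites as library size. Its mean level was 19.1% and 22.9% without dTAG13 against 31.5% and 25.4% with it. Both dTAG13 values were higher, with a log2 odds difference of 0.58 ± 0.31 (SE) and an adjusted p of 0.569 by limma. Sites at 50% or more numbered 4 and 5 against 12 and 11, and those at 90% or more numbered 1 and 2 against 9 and 4. The 13 dTAG13 listings at 90% or more had a median of 40 reads, and 8 of them rested on fewer than 50. Coverage differed widely between the dTAG13 libraries, 109 and 230, against 208 and 188.

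The positions of Fto spread over 266525 bases of chromosome 8, with 91 of 128 in the 3'-most stretch. Site 92394887, 102 bases before the last, was at 10.5% of 592 reads and 12.2% of 647 reads without dTAG13 and at 13.9% of 432 reads in the first dTAG13 library. Listing could change over a few bases: 92394200 was listed in both untreated libraries alone, at 10.1% of 939 reads and 22.5% of 864 reads, and 92394205 in both dTAG13 libraries alone, at 14.8% of 115 reads and 15.04% of 1330 reads. Site 92394658 was also listed with dTAG13 alone, at 16.1% of 521 reads and 27.9% of 204 reads. Site 92136416, near the 5' end, was at 96.0% of 25 reads and 79.7% of 74 reads with dTAG13 and was not listed without it. Site 92394442 was at 38.4% of 164 reads and 100% of 45 reads with dTAG13 alone.

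Sharing of positions was low throughout. Of the 1475 positions, 1311 (88.9%) belonged to 1 library, 149 to 2, 13 to 3 and 2 to all 4. Of 393 sites with at least 50 reads in the first untreated library, 8.65% (95% Wilson interval 6.26% to 11.8%) were listed in the second. In the dTAG13 libraries 7.38% (5.19% to 10.4%) and 7.12% (4.98% to 10.1%) of them were listed. Of 359 such sites of the second untreated library, 10.3% (7.57% to 13.9%) were listed in the first, and 5.85% (3.86% to 8.78%) and 9.19% (6.62% to 12.6%) in the dTAG13 libraries. Recovery in the dTAG13 libraries was 0.779 of that between the untreated ones, and the intervals overlapped. That ratio was 0.401 for sites at a level of at least 50%, and it was 1.09 with the dTAG13 libraries as reference, so its direction depended on which libraries served as reference. Over all genes, of such sites of the first untreated library, 11.1% were listed in the second untreated library and 6.00% and 6.38% in the dTAG13 libraries.

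Of the 42 positions listed in both untreated libraries, 12 were listed in at least 1 dTAG13 library, 28.6% (95% Wilson interval 17.2% to 43.6%), against 20.0% of 25086 such positions over all genes. There were 8 with a mean untreated level of 90% or more. They lie in Ythdf3 (3 sites), Ythdf1 (2 sites), Ythdc1, Alkbh5 and Prrc2a (1 site each, the last being 35375620 at 90.7% of 86 reads and 100% of 24 reads, which falls outside the naming rule). With dTAG13, 5 of these 8 were listed, 4 of them at lower levels and the Ythdc1 site at 100%. Over all genes, 391 of 2004 such positions were relisted (19.5%), 325 of them at lower levels. The members' share relisted was 62.5% (95% Wilson interval 30.6% to 86.3%), from 8 positions. Of the 30 positions listed in both dTAG13 libraries, 5 were listed in an untreated library, 16.7%, against 31.2% over all genes. Counting positions at 90% or more in any 1 library of a group, sites near 100% were found on either side of the comparison. Of 71 such untreated positions, 12 were listed with dTAG13, 10 at lower levels and 8 under 50%. Of 76 such dTAG13 positions, 7 were listed without dTAG13, 6 at lower levels and 5 under 50%. The 5 are the Prrc2a site 35374986 given above, Alkbh5 60446923 (28.6% to 100% of 22 reads) and 60447300 (34.1% to 90% of 70 reads), Fto 92392992 (19.7% to 97.7% of 86 reads) and Ythdc1 86964795 (11.5% to 91.2% of 68 reads), named after their values were seen. Positions chosen for a level near 100% in 1 group can hardly be higher in the other. A position had to be listed to have a level, so relisted sites are those that stayed above the limits.

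**Figure D4:**
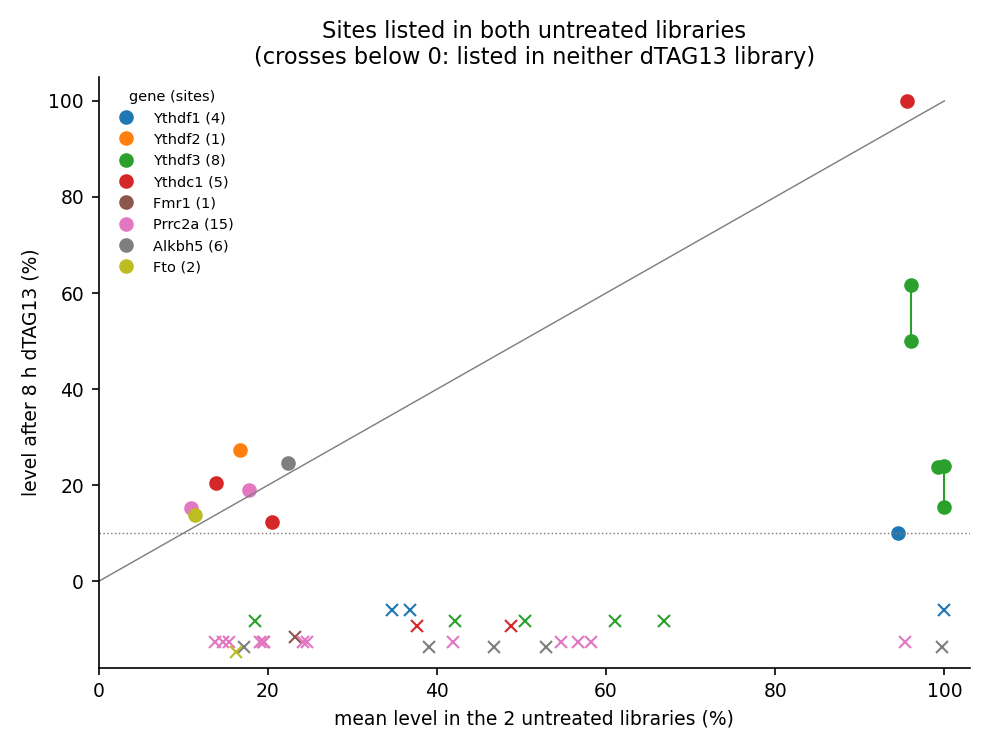
Level after 8 h of dTAG13 against the mean level in the 2 untreated libraries, both in percent of A and G reads, for the 42 positions listed in both untreated libraries, coloured by gene; each dot is a dTAG13 library that lists the position (a vertical line joins 2 libraries at the same position), crosses below 0 are positions listed in neither dTAG13 library, the diagonal marks equal levels and the dotted line the lowest listed level of 10%. Of the 8 positions at 90% or more without dTAG13, the Ythdc1 site lies on or above the diagonal at 100%, 4 lie below it and 3 are crosses.

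Other genes of the pathway were counted in the same way. Listed sites of 15 other binding proteins (among them Igf2bp1, Hnrnpa2b1 and Elavl1) numbered 836 and 878 without dTAG13 against 641 and 719 with it. Those of 12 writers and their partners numbered 302 and 300 against 215 and 243, and those of 5 decay partners of the readers numbered 212 and 225 against 128 and 160. The dTAG13 libraries listed fewer sites in each list, with median log2 changes of -0.42, -0.46 and -0.81 beside -0.51 for all genes. No gene of the 3 lists passed an adjusted p of 0.05 for listed sites (edgeR) or for coverage, mean level or conversion (limma). At an unadjusted p under 0.05 for listed sites there were 4 of 15, 2 of 12 and 3 of 5 genes, against a background of 20.7% over all genes. Of these lists, the other binding proteins alone had sites in the test of levels, 7 of them, in Igf2bp1, Igf2bp2, G3bp1, Eif3h and Prrc2b. None was called, and their differences ran from -1.38 to 5.69 percentage points, where the 2 Ythdf3 sites had -40.3 and -80.3. A site had to stay at or above the lowest listed level to be tested, so its possible fall depended on its untreated level. The untreated levels of the 7 sites were not compared with those of the Ythdf3 sites. These differences therefore do not show whether the Ythdf3 sites changed more than sites that started at the same level.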

How the data were processed

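GLORI site tables of 2 untreated and 2 dTAG13 libraries were used as the authors deposited them, 1 table per library, with replicates not pooled. The deposited counts are A and G reads and A reads per site, not normalized. The deposited fractions are the level of a site and the conversion rate of a gene. The deposited coverage signal is 1 value per gene, and whether it was normalized for depth is not stated. The deposited p-values are those of the authors' site calls, adjusted and at most 0.00401. Aligner and caller are not given in the sources used here. Build mm10 is named per the submitters' processing notes, but contigs such as MU069434v1 in the tables belong to a later assembly. Coordinates are therefore given as the tables list them, and exon, UTR and sequence were not assigned. A RefSeq table served only to check names (9 of 9 matched).

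Levels were recomputed as percent of A among A and G reads. Listed sites per gene (at least 10 over the 4 libraries, equal library sizes) were tested with edgeR 4.0.16 and its quasi-likelihood test. Levels at sites in all 4 libraries (at least 20 reads each) were tested with a quasi-binomial model whose dispersion was moderated by limma 3.58.1. Mean levels (at least 3 sites per library, log2 odds of summed reads with 0.5 added), log2 coverage centred on the median gene, and log2 odds of the unconverted share were tested with limma. All tests were two-sided, with Benjamini-Hochberg adjustment over all features at 0.05. DESeq2 1.42.0 was an alternative. Each fit was tested on simulated data. Intervals are Wilson 95% over counts of positions and cover counting error only, with positions taken as independent. Positions of a gene can lie a few bases apart, and reads are not known to be independent molecules. Stretches are runs of listed positions with no gap over 1000 bases. Named sites are those listed in 3 or 4 libraries, then those in both libraries of a group by mean reads, up to 8 per gene, then the 2 deepest; other sites are named as chosen after their values were seen. The members, lists and tests were chosen with earlier results of these data known. Same-numbered replicates did not deviate together (correlation 0.00227 for coverage, 0.00473 for listed sites), so no pairing was used.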

Additional observations from a re-analysis of the deposited data

How the results depend on the processing

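The ratio of listed sites over the 9 genes was 0.808, and it was 0.749 to 0.867 without 1 library. It was below 1 under every alternative run. Among them were 0.917 for sites at 50% or more and 0.872 without the genes of clearly lower coverage, both chosen after seeing the data. None of these alternatives scaled for the total number of listed sites. As a share of all sites placed in genes, the members' sites were higher in both dTAG13 libraries. The means were 0.194% against 0.172%, a ratio of 1.13. Member sites called by the site test numbered 1; Fisher's exact test on summed replicates called 2, and the replicate block and each fit without 1 library called 0. Over all 2321 sites Fisher's exact test called 296 lower and 235 higher, where the main test called 51 and 2. Summed replicates leave out the spread between libraries, so the second member call adds no support. With at least 50 reads per library no member site could be tested. The recovery ratio of 0.779 was 0.624 at 200 reads, 0.401 at a level of at least 50% and 0.652 within 2 bases, and it was 1.09 with the dTAG13 libraries as reference. For the calls per gene, no alternative called a member.

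Signs of uncalled log2 differences turned as follows. With the total number of listed sites as library size, TMM or DESeq2's size factors, listed sites were 0.42, 0.44 and 0.45 in Fmr1, 0.10, 0.12 and 0.12 in Fto, 0.19, 0.21 and 0.21 in Ythdc1, and 0.43, 0.44 and 0.44 in Ythdf3. Over all genes, edgeR then called 58 and 65 genes in place of 0. Without 1 library, listed sites ranged from -0.029 to 0.60 in Ythdf1 and from -0.24 to 0.11 in Ythdf3. The unweighted mean level was 0.086 in Ythdc1 and -0.13 in Ythdf2, and without 1 library mean levels ranged from -0.10 to 0.49 in Alkbh5, -0.26 to 0.053 in Ythdc1 and -0.11 to 0.20 in Ythdf2. Coverage of Alkbh5 was 0.14 after quantile normalization, and without 1 library it ranged from -0.11 to 0.042 there and from -0.57 to 0.082 in Fto. Without centring, limma called 15 genes over all genes for coverage, no member among them. The unconverted share centred on the median gene was 0.0024 in Fmr1, 0.32 in Prrc2a, 0.068 in Ythdc1, 0.11 in Ythdc2, 0.077 in Ythdf1 and 0.030 in Ythdf2. In Prrc2a it differed by 0.001 percentage points, and without 1 library it ranged from -0.10 to 0.10 there and from -0.83 to 0.42 in Ythdc2. The cause of these changes was not tested. A fit with the replicate number as a block changed no other call. Depth limits the sites at 90% or more, many of which rest on fewer than 50 reads.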

Other observations

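Between the first and the last listed site of each of the 9 genes, on the same strand, the tables also list positions that they place in no gene. These numbered 95 and 93 in the untreated libraries against 59 and 69 after dTAG13, summed over the genes. Listed sites of the whole series were fewer with dTAG13 too, a ratio of means of 0.704. That ratio was not computed for all positions placed in no gene. Ythdf3 had 94 such positions over all 4 libraries, Ythdc1 had 50, Fto had 43 and Ythdf1 had 12. Of all of them, 2 in Prrc2a, 1 in Ythdf2 and 1 in Ythdf3 were listed in more than 1 library. They were counted in no comparison of listed sites per gene.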
